A study of Mus musculus with 12 samples.

Results

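The Trim30 and Trim5-like genes form a cluster on mouse chromosome 7, and 7 of them were followed here: Trim30a, Trim30b, Trim30c, Trim30d, Trim12a, Trim12c and Trim34a. They were taken by symbol from the 55401 genes of the counts table, and all 7 were among the 14079 genes that passed the expression filter, a log2 CPM (counts scaled to library size) above 0 in at least 2 libraries. RNA had been sequenced from Sp37A3 cells, an immature dendritic cell (DC) line derived from mouse spleen and grown with GM-CSF and M-CSF. The CtrV line carried an empty vector, and the EKO line had been made with CRISPR-Cas9 and a guide against Siglece, which encodes the inhibitory sialic acid receptor Siglec-E. Each line was sequenced after 24 h of LPS (0.1 µg/ml in the study's methods for the pulsed cells), either pulsed with OVA (0.1 mg/ml for 2 h) or unpulsed, so that every group was LPS-stimulated and no resting cells were compared. There were 3 replicates in each of the 4 groups, 12 libraries in all, and p-values measure the spread between these libraries. EKO was a pool of single clones and CtrV a single transduced line, so differences between lines cannot be told apart from differences between clones.

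The targeted gene was examined first. Siglece mRNA was not lower in the libraries labelled as knockout: it averaged 156 ± 6.30 CPM (SD, n = 3) in CtrV libraries and 195 ± 18 CPM in EKO libraries after OVA, and it was higher in EKO (log2 fold change 0.31, SE 0.08, edgeR adjusted p = 0.011). The paper reported that the clones pooled for this line expressed minimal or no Siglec-E receptor. An insertion or deletion made by Cas9 need not lower the mRNA. The counts hold no sequence of the edited site, so these libraries are called EKO-labelled throughout. Library totals lay between 27116201 and 39698572 counts, and the detection floor of 3 counts corresponded to 0.0785 to 0.110 CPM. All 8 DC markers examined passed the filter, with summed levels of 23600 to 25800 CPM for CtrV and 23900 to 26400 CPM for EKO-labelled libraries, most of it Cd74. The DC markers were not alike in the lines: after OVA, 4 stood higher and 1 lower in the EKO-labelled group, and without OVA 3 and 1 did so. Of all 14079 tested genes, 25.1% were called higher after OVA and 24.5% without. In either direction 6619 and 6537 genes were called, so the markers were not set apart from other genes by these counts. After OVA Flt3, a growth factor receptor of DCs, was higher (log2 fold change 1.74, SE 0.42, edgeR adjusted p = 0.0057). Without OVA Flt3 was not called (0.92, SE 0.43, edgeR adjusted p = 0.10), and its groups overlapped. It was scarce, at 7.85, 1.81 and 1.80 CPM in unpulsed EKO-labelled replicates 1, 2 and 3. After OVA H2-Ab1 (0.52), H2-Aa (0.49) and Ptprc (0.32) were also higher. Itgax, which encodes CD11c, was lower (-0.27, SE 0.06, edgeR adjusted p = 0.0040). The part of these marker differences in the results was not tested. T cell, B cell, stromal or epithelial and erythroid markers summed to at most 33.1 CPM for any list in any library, and 2 of these 20 genes passed the filter.

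TRIM proteins carry a RING domain with ubiquitin ligase activity, a B-box and a coiled coil. Many genes of this cluster encode in addition a C-terminal B30.2 domain, with which TRIM5 of primates recognises the capsid of incoming retroviruses. Mice have several relatives of this single primate gene, the Trim12 and Trim30 genes among them. Trim30a is best known as a brake on Toll-like receptor signalling that promotes the loss of TAB2 and TAB3, adaptors of the kinase TAK1, and it has also been described as restraining the NLRP3 inflammasome. Trim30d has been described as restricting tick-borne flaviviruses, Trim12c as promoting interferon and NF-kB signalling with TRAF6, and TRIM34 as working with TRIM5 in capsid recognition. Genes of this kind are commonly induced by type I interferon, which acts through transcription factors such as IRF9 on the interferon-stimulated response element (ISRE).

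In the GENCODE annotation of GRCm38 (mm10), the members spanned chromosome 7 from position 104244457, where Trim34a starts, to 104507849, where Trim30d ends. Trim34a lay on the plus strand (104244457 to 104262234). The other members lay on the minus strand, in the order Trim12a (104299894 to 104315466), Trim12c (104338754 to 104353362), Trim30b (104355382 to 104369884), Trim30c (104382065 to 104400837), Trim30a (104409025 to 104465193) and Trim30d (104470014 to 104507849). A further 9 genes were annotated between the outermost members, of which 5 passed the filter, Trim5 and Trim34b among them.

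The members were near copies in part. The longest coding sequences of Trim30a and Trim30d were 90.2% identical over 1488 aligned bases, and Trim30c was 82.9% identical to Trim30a over 1488. Trim12a and Trim12c were 96.4% identical over the 891 bases of the coding sequence annotated for Trim12a, the shorter one, and Trim12c was 96.6% identical to the neighbouring Trim5 over 1491. Trim34a and Trim34b, 98.2% identical over 1451 bases, were the closest pair, whereas Trim30a and Trim34a shared 60.3% of 1447 bases. Because reads that fitted several places equally well were assigned to one of them, counts of close copies can mix. Of all stretches of 100 bases in annotated transcripts, 21% of those of Trim34a recurred in Trim34b, 7.02% of those of Trim12c in Trim5, 4.57% of those of Trim30d in Trim30a and 2.00% of those of Trim12a in Trim5. No such stretch of Trim30b or Trim30c recurred in another gene. With stretches of 50 bases these shares were 39.8% for Trim34a, 24.2% for Trim12c, 6.39% for Trim30d and 5.04% for Trim12a. The levels of Trim34a and Trim12c were therefore the least separable from those of a near copy. Of the exonic bases of Trim34a, 23.5% also lay opposite an antisense gene, Gm47248, which had at most 2 counts in any library.

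The promoter windows in RefSeq (build GRCm38.p6, 250 bases before to 50 after each annotated start) were searched for 3 motifs on both strands: the ISRE core GAAANNGAAA, the gamma-activated sequence TTCNNNGAA (GAS) and the NF-kB motif GGGANNNNCC. An ISRE core was found for 5 of the 7 members, Trim30a, Trim30d, Trim12a, Trim12c and Trim34a. It was found for 3.99% of all 27025 genes and in 3.44% of all 32851 windows. The 5 are not independent, as near copies share upstream sequence, 95.2% identical over 210 aligned bases for Trim12a and Trim12c. Trim30c held 1 GAS match, a motif found in 8.30% of all windows and for 9.55% of genes. No member held the NF-kB motif, found in 20.7% of windows and for 22.9% of genes. A match is a description of letters and not a bound site. The stretches below, 120 bases each, were chosen to show these motifs beside the start of transcription and to set the Trim30c sequence, which lacks a match, beside those of its relatives. They read 5′ to 3′ in the direction of transcription, and capitals mark the ISRE core, which appears here as its reverse complement TTTCNNTTTC. Those of Trim34a, Trim12a and Trim5 include 30, 29 and 12 bases after the RefSeq start, and the others end before it.
Trim30a (chr7:104465194-104465313, minus strand): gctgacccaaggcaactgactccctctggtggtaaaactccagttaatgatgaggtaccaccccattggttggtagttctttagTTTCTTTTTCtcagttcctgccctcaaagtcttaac
Trim30d (chr7:104507850-104507969, minus strand): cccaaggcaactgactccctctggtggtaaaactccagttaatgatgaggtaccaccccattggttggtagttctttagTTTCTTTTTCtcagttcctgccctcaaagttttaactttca
Trim30c (chr7:104400838-104400957, minus strand): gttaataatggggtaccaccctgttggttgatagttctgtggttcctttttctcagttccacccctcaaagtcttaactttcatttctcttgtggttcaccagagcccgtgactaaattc
Trim12a (chr7:104315467-104315586, minus strand): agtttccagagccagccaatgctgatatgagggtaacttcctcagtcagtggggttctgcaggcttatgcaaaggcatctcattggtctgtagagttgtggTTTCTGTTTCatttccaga
Trim12c (chr7:104353363-104353482, minus strand): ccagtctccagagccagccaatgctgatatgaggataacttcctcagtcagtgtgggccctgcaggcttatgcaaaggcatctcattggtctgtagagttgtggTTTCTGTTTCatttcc
Trim5 (chr7:104288095-104288214, minus strand): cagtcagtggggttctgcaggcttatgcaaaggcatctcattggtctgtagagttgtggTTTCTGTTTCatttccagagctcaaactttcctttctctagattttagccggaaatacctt
Trim34a (chr7:104244367-104244486, plus strand): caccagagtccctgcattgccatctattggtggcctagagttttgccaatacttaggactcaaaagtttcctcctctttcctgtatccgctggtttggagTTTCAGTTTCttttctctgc

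In Trim30a the core ended 26 bases before the RefSeq start, and in Trim30d 31 bases before it, within windows that were 92.7% identical over 245 aligned bases. A second annotated Trim30a start, inside the gene, also had a core, at its bases 3 to 12. In Trim12c the core ended 19 bases before the start. In Trim12a and Trim34a it covered bases 11 to 20 after the RefSeq start, and for Trim12a the GENCODE start lies 29 bases further downstream, so that the same core precedes it. The upstream sequences of Trim12a and Trim5 were 100% identical over the 191 bases that could be aligned, and Trim5 held the core as well. The RefSeq start of Trim30b lies well inside its GENCODE gene, and its window is not shown.

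Transcript levels per length differed widely among the members (RPKM, reads per kilobase of annotated exon, scaled for depth). In OVA-pulsed CtrV cells Trim30a was highest, at 56.0 ± 12.8 RPKM (SD, n = 3). Trim30d (19.9 ± 7.15 RPKM), Trim12c (17.0 ± 1.04 RPKM) and Trim34a (13.3 ± 2.24 RPKM) followed, and Trim30d and Trim12c did not differ beyond the spread of Trim30d. Trim12a stood at 8.10 ± 0.447 RPKM, Trim30b at 2.06 ± 0.395 RPKM and Trim30c lowest at 0.374 ± 0.131 RPKM. In OVA-pulsed EKO-labelled cells Trim30a (116 ± 8.87 RPKM) and Trim30d (44.4 ± 2.45 RPKM) again led. Trim34a (21.3 ± 2.54 RPKM) and Trim12c (19.7 ± 0.655 RPKM) came next and did not differ beyond their spread, before Trim12a (8.91 ± 0.396 RPKM), Trim30b (3.98 ± 0.786 RPKM) and Trim30c (1.80 ± 0.418 RPKM). Trim30c was the least precise, with 13 to 147 counts per library, against 5426 to 17648 for Trim30a.

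The comparison of EKO-labelled with CtrV cells asks how the line made to lack Siglec-E differs under LPS. All 7 members were higher in EKO-labelled cells after OVA, and all 7 in unpulsed cells (edgeR quasi-likelihood test, adjusted p under 0.05). Of all 14079 genes tested, 25.1% were called higher in EKO-labelled cells after OVA and 24.5% without OVA, and the median log2 fold change was 0 in both, against 0.91 and 1.12 for the members. The rise was steepest in the 4 Trim30 genes, intermediate in Trim34a and slight in Trim12a and Trim12c. Summed over the 7 members, the level went from 466 ± 93.8 CPM to 857 ± 58.2 CPM after OVA (SD, n = 3 each), a ratio of 1.84, and from 442 ± 34.1 CPM to 896 ± 161 CPM without OVA, a ratio of 2.02.

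**Figure D1:**
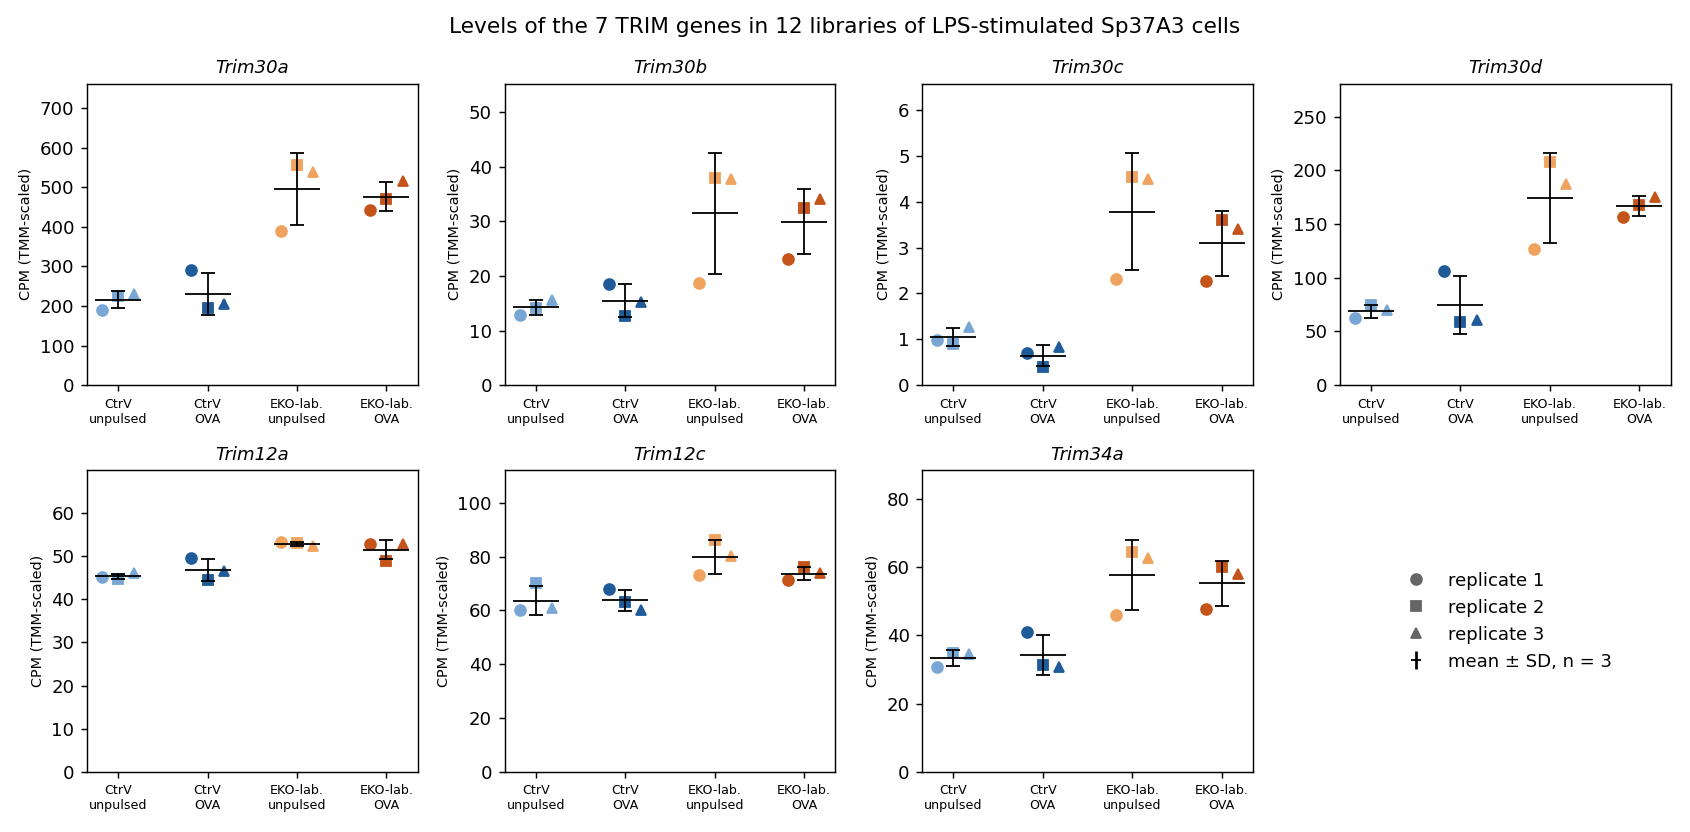
Level of each member in CPM, scaled by TMM, in every library (points, shaped by replicate number), with the mean ± SD of the 3 libraries of each group; every vertical axis starts at 0. The Trim30 genes and Trim34a stood higher in both EKO-labelled groups than in both CtrV groups, while Trim12a and Trim12c moved little.

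Trim30a carried about as many reads as the other members together. After OVA its level was 290, 194 and 206 CPM in CtrV replicates 1, 2 and 3, and 443, 472 and 516 CPM in EKO-labelled replicates 1, 2 and 3. Every EKO-labelled library was above every CtrV library, and CtrV replicate 1 stood above the other CtrV libraries. The fold change was 2.06 (log2 1.04, SE 0.17, 95% interval 0.67 to 1.41, adjusted p = 0.00051). Without OVA the CtrV libraries held 191, 226 and 231 CPM and the EKO-labelled libraries 391, 556 and 540 CPM, again without overlap (log2 fold change 1.20, SE 0.17, adjusted p = 0.00021). The gene took 47.4% to 50.6% of the reads of the 7 members in CtrV libraries and 54.9% to 56.4% in EKO-labelled libraries.

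Trim30d, its closest relative within the cluster, moved alongside. After OVA it stood at 106, 58.3 and 60.2 CPM in CtrV and at 157, 168 and 175 CPM in EKO-labelled libraries. The groups did not overlap, and CtrV replicate 1 was again the highest control (log2 fold change 1.15, SE 0.23, adjusted p = 0.0022). Without OVA it went from 62.2, 74.3 and 69.9 CPM to 127, 208 and 187 CPM (log2 fold change 1.34, SE 0.23, adjusted p = 0.00089), EKO-labelled replicate 1 being the lowest of its group. There were 2.75 to 3.43 counts of Trim30a for each count of Trim30d in CtrV libraries and 2.67 to 3.08 in EKO-labelled libraries.

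Trim30b, annotated with a short coding sequence of 609 bases, was far less abundant. Its levels after OVA were 18.6, 12.7 and 15.2 CPM in CtrV and 23.2, 32.5 and 34.2 CPM in EKO-labelled libraries, without overlap (log2 fold change 0.91, SE 0.22, adjusted p = 0.0065). Without OVA they were 12.9, 14.2 and 15.6 CPM against 18.7, 37.9 and 37.8 CPM (log2 fold change 1.12, SE 0.23, adjusted p = 0.0022). EKO-labelled replicate 1 lay well under the other 2 libraries of its group in both conditions, and closest to the controls.

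Trim30c had the largest fold change and the lowest level. After OVA CtrV libraries held 0.703, 0.393 and 0.829 CPM, and EKO-labelled libraries held 2.28, 3.60 and 3.41 CPM. The groups were separated, with a fold change of 4.73 (log2 2.24, SE 0.26, 95% interval 1.66 to 2.82, adjusted p = 5.3e-05), which placed the gene at percentile 98.5 of all tested fold changes. Without OVA the libraries held 0.987, 0.895 and 1.27 CPM for CtrV and 2.31, 4.55 and 4.50 CPM for EKO-labelled cells (log2 fold change 1.83, SE 0.24, adjusted p = 0.00014). Its upstream stretch printed above had no exact ISRE core. Where Trim30a reads TTTCTTTTTC before tcagttcc, Trim30c reads ttcctttttc.

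Trim34a rose less. It was at 41.1, 31.2 and 30.8 CPM in OVA-pulsed CtrV and at 47.8, 60.1 and 58.1 CPM in OVA-pulsed EKO-labelled libraries (log2 fold change 0.67, SE 0.14, adjusted p = 0.0030). In unpulsed cells it was at 30.6, 34.9 and 34.5 CPM against 46.0, 64.6 and 62.7 CPM (log2 fold change 0.79, SE 0.14, adjusted p = 0.0012). The groups did not overlap in either condition. Its near copy Trim34b, with which it shares reads, had log2 fold changes of 0.67 (SE 0.12, adjusted p = 0.0010) and 0.82 (SE 0.12, adjusted p = 0.00030).

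The Trim12 genes differed least between the lines. Trim12c was at 67.9, 63.2 and 60.1 CPM in OVA-pulsed CtrV and at 71.1, 76.0 and 73.9 CPM in OVA-pulsed EKO-labelled libraries. The groups were separate by a narrow gap (log2 fold change 0.21, SE 0.07, adjusted p = 0.026). Unpulsed libraries held 60.1, 70.0 and 60.8 CPM against 73.3, 86.0 and 80.1 CPM (log2 fold change 0.33, SE 0.07, adjusted p = 0.0025). Trim12a was the only member whose groups overlapped after OVA, at 49.6, 44.4 and 46.5 CPM in CtrV and 52.7, 48.9 and 52.9 CPM in EKO-labelled libraries (log2 fold change 0.14, SE 0.05, adjusted p = 0.036). Unpulsed, it was at 45.2, 44.7 and 46.0 CPM against 53.2, 53.0 and 52.3 CPM, without overlap (log2 fold change 0.22, SE 0.05, adjusted p = 0.0033). Non-overlap in this direction was shown by 6 members after OVA and 7 without, and by 27% and 24.1% of all genes tested.

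The call of Trim12a after OVA rested on single libraries. It was lost in 6 of the 12 fits that left out 1 library, namely those without unpulsed CtrV replicate 2, without OVA-pulsed CtrV replicate 2 or 3, or without any 1 of the 3 OVA-pulsed EKO-labelled replicates, with adjusted p up to 0.20. Trim12c after OVA lost its call in 5 of them, those without OVA-pulsed CtrV replicate 2 or 3 or any 1 OVA-pulsed EKO-labelled replicate, with adjusted p up to 0.18. Without the replicate block neither passed (adjusted p = 0.069 for Trim12a and 0.053 for Trim12c). The other 5 members kept their call in each of these fits, as did all 7 in unpulsed cells.

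**Figure D2:**
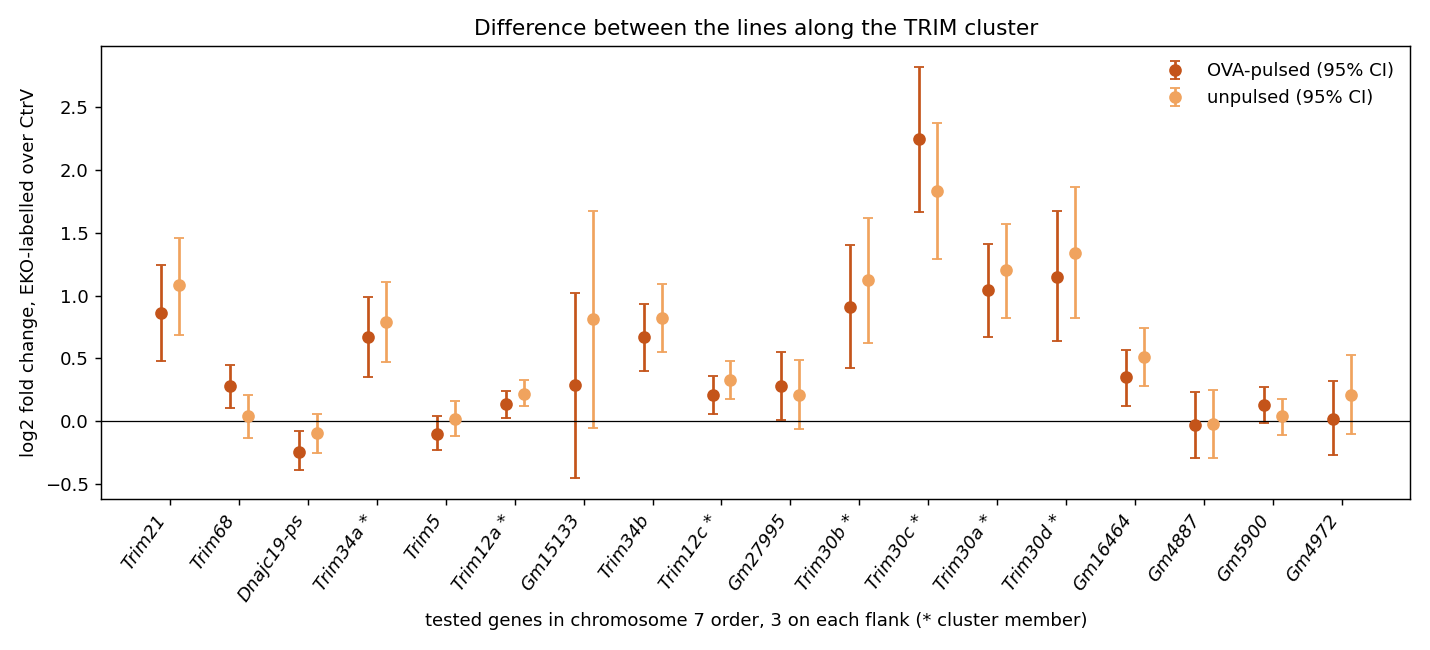
Log2 fold change of EKO-labelled over CtrV with its 95% interval for every tested gene from 3 genes before to 3 genes after the cluster, in chromosome order; an asterisk marks the members. The 4 Trim30 genes, Trim34a and Trim34b stood clearly above 0 in both conditions, Trim5 between them lay near 0, and the 3 genes after the cluster had intervals that included 0.

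Along the chromosome the difference was not uniform. Trim5, which lies between Trim34a and Trim12a, was at 24.4, 23.5 and 21.5 CPM in OVA-pulsed CtrV and at 22.0, 21.2 and 21.6 CPM in OVA-pulsed EKO-labelled libraries, and was not called (log2 fold change -0.10, 95% interval -0.23 to 0.04, adjusted p = 0.22; without OVA 0.02, interval -0.12 to 0.16, adjusted p = 0.80). The pseudogene Gm16464, which lies within the span of Trim30d, was higher after OVA (log2 fold change 0.35, SE 0.10, adjusted p = 0.016) and without OVA (0.51, SE 0.10, adjusted p = 0.0022). The antisense gene Gm15133 and the small RNA gene Gm27995 were not called in either comparison. Trim6, at the edge of the cluster, had at most 2 counts in any library and Trim30e-ps1 at most 7, and neither was tested. Of the tested flanking genes, Trim21, an Fc receptor and ubiquitin ligase more than a megabase away, was higher after OVA (0.86, SE 0.17, adjusted p = 0.0019) and without OVA (1.08, SE 0.17, adjusted p = 0.00051). Trim68 (0.28, SE 0.08, adjusted p = 0.011) and Dnajc19-ps (-0.24, SE 0.07, adjusted p = 0.018) were called after OVA alone, with adjusted p of 0.69 and 0.30 without OVA. The pseudogenes Gm4887, Gm5900 and Gm4972 on the other side were not called.

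Whether the members changed to different degrees was tested on the log2 ratio of each of the 21 pairs of members, with an exact two-sided permutation of the line labels within OVA-pulsed and within unpulsed libraries (400 arrangements, n = 6 per line, smallest p 0.005). The test was chosen with the values already known. It treats the OVA-pulsed and unpulsed libraries of one replicate number as independent and holds no replicate block, although same-numbered EKO-labelled libraries deviated together, so its p-values may be too small. In 16 of the 21 pairs the ratio differed between the lines at an adjusted p under 0.05. The matching shares, of pairs that passed or did not overlap, were not computed for other genes. With 6619 of 14079 genes called between the lines after OVA, these counts are not shown to be particular to the cluster. Each Trim30 gene gained on each Trim12 gene: the log2 ratio of Trim30a to Trim12a went from 2.26 ± 0.18 (SD, n = 6) to 3.21 ± 0.20, a difference of 0.95 (exact permutation p = 0.005, adjusted p = 0.0075). Trim34a also gained on Trim12a by 0.55 and on Trim12c by 0.47 (both adjusted p = 0.0075, exact permutation). Trim30c gained on Trim30a by 0.84, on Trim30b by 0.96 and on Trim30d by 0.70 (adjusted p = 0.0075, 0.0075 and 0.020, exact permutation). The 5 pairs that did not pass were Trim30a with Trim30b (difference 0.12, adjusted p = 0.38), Trim30a with Trim30d (-0.13, adjusted p = 0.083), Trim30b with Trim30d (-0.25, adjusted p = 0.076), Trim30b with Trim34a (0.28, adjusted p = 0.056) and Trim12a with Trim12c (-0.09, adjusted p = 0.19), all by the exact permutation test. When the OVA-pulsed and unpulsed library of each line and replicate number were averaged, leaving n = 3 per line and a smallest possible exact p of 0.1, the lines did not overlap in 15 of the 16 pairs that had passed, all but Trim30c with Trim30d.

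The size of the difference varied with the replicate number. Between same-numbered OVA-pulsed libraries, the log2 difference of Trim30a was 0.61, 1.28 and 1.32 for replicates 1, 2 and 3, and that of Trim30d was 0.57, 1.52 and 1.54. For Trim34a it was 0.22, 0.94 and 0.91, and for Trim30b 0.31, 1.35 and 1.17. Replicate 1 gave the smallest difference for each of the 7 members, down to 0.07 for Trim12c, and for 44.4% of the 3531 genes called higher after OVA. In Trim34a, for example, OVA-pulsed CtrV replicate 1 exceeded the mean of the other 2 by 0.40 on the log2 scale, and EKO-labelled replicate 1 differed from its group by -0.31. Without OVA, EKO-labelled replicate 1 differed from the other 2 by -0.49 on the log2 scale for Trim30a, -1.01 for Trim30b and -0.63 for Trim30d, but by 0.01 for Trim12a. With both EKO-labelled libraries of replicate 1 left out, a setting chosen after the values were seen, 6 members were called after OVA, all but Trim12a (adjusted p = 0.078), and 7 without OVA. Of the 8 interferon signalling genes called higher after OVA, 6 had their smallest difference in replicate 1, and Tyk2 and Socs1 did not. Irf9 differed by 0.44, 0.95 and 0.97 and Stat2 by 0.48, 1.04 and 1.35 in OVA-pulsed replicates 1, 2 and 3.

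**Figure D3:**
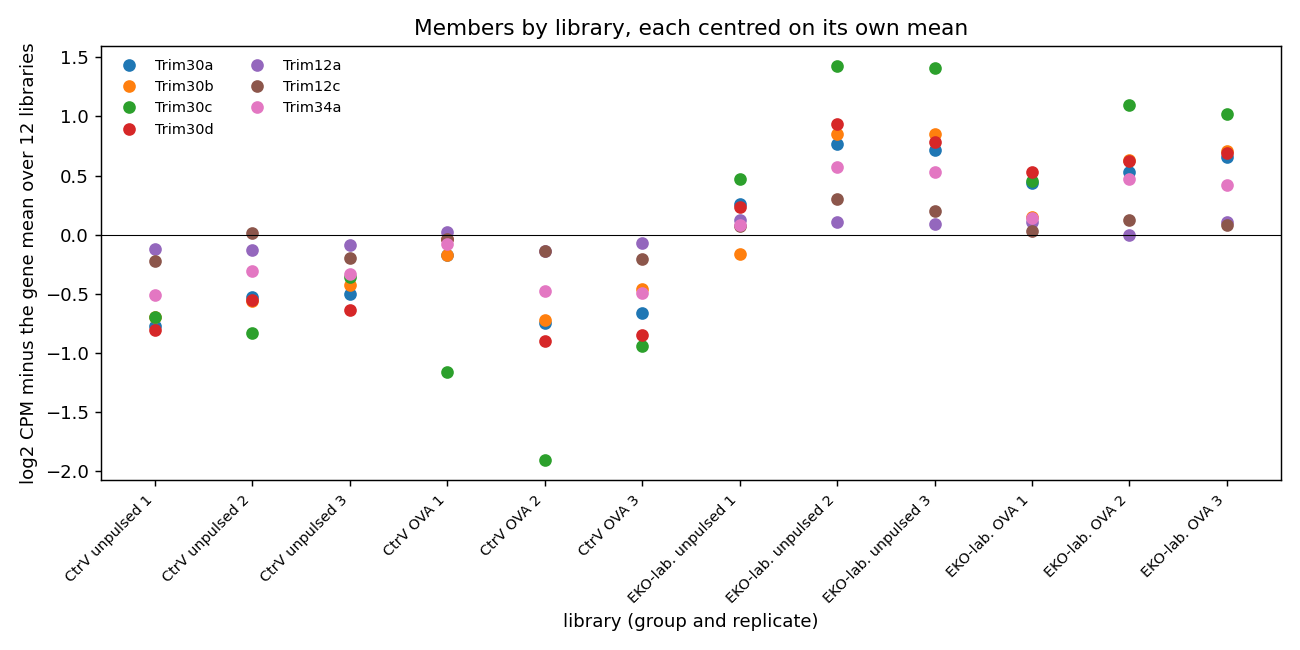
Log2 CPM of each member in each library after subtraction of the gene's mean over the 12 libraries. Trim30a, Trim30b, Trim30d and Trim34a deviated together by library, with higher values in OVA-pulsed CtrV replicate 1. These genes and Trim30c had lower values in EKO-labelled replicate 1 than in the other EKO-labelled replicates. In CtrV libraries Trim30c did not follow them, at -1.16 in OVA-pulsed and -0.70 in unpulsed replicate 1. Trim12a stayed closest to 0.

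No effect of the OVA pulse itself was called for any member. In CtrV cells, OVA-pulsed against unpulsed, log2 differences ran from -0.70 (Trim30c, 95% interval -1.40 to 0.01) to 0.16 (Trim30b, interval -0.36 to 0.67). In EKO-labelled cells they ran from -0.28 (Trim30c, interval -0.73 to 0.16) to -0.04 (Trim12a, interval -0.14 to 0.07). The dependence of the line difference on pulsing, tested as an interaction, ran from -0.22 (Trim30b, interval -0.91 to 0.48) to 0.41 (Trim30c, interval -0.42 to 1.25). No member was called by edgeR in these 3 comparisons, none had an unadjusted p under 0.05, and DESeq2 and limma voom called none. Across all 14079 genes edgeR called 0% in each of the 3 comparisons. An unadjusted p under 0.05 was held by 231, 394 and 269 genes respectively, fewer than evenly spread p-values would give. The intervals of the Trim30 genes are wide, reaching -1.40 for Trim30c in CtrV cells, so that effects of OVA within them were not resolved. The OVA-pulsed and unpulsed comparisons between lines come from separate libraries, which share replicate numbers and, in EKO-labelled cells, deviated together by number.

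Among genes with a Trim symbol outside the 7, 33 were tested. After OVA 12 were higher in EKO-labelled cells, 8 were lower and 13 were not called, with a median log2 fold change of 0.10. Without OVA 11 were higher and 9 lower, with a median of 0.02. Of all tested genes, 25.1% and 24.5% were called higher. The 4 Trim30 genes held the 4 highest fold changes of all 40 tested Trim genes in both conditions. After OVA the scarce gene Trim17 came next (0.89, SE 0.24), close to Trim30b (0.91, SE 0.22). The largest changes outside the members, among genes with a mean log2 CPM of at least 1, were those of Trim21 (0.86), of Trim14, an adaptor of antiviral signalling (0.79, SE 0.13, adjusted p = 0.00057), and of Trim65, a regulator of the RNA sensor MDA5 (-0.74, SE 0.09, adjusted p = 8.1e-05). The member Trim30c, with a mean log2 CPM of 0.77, lay under this limit.

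**Figure D4:**
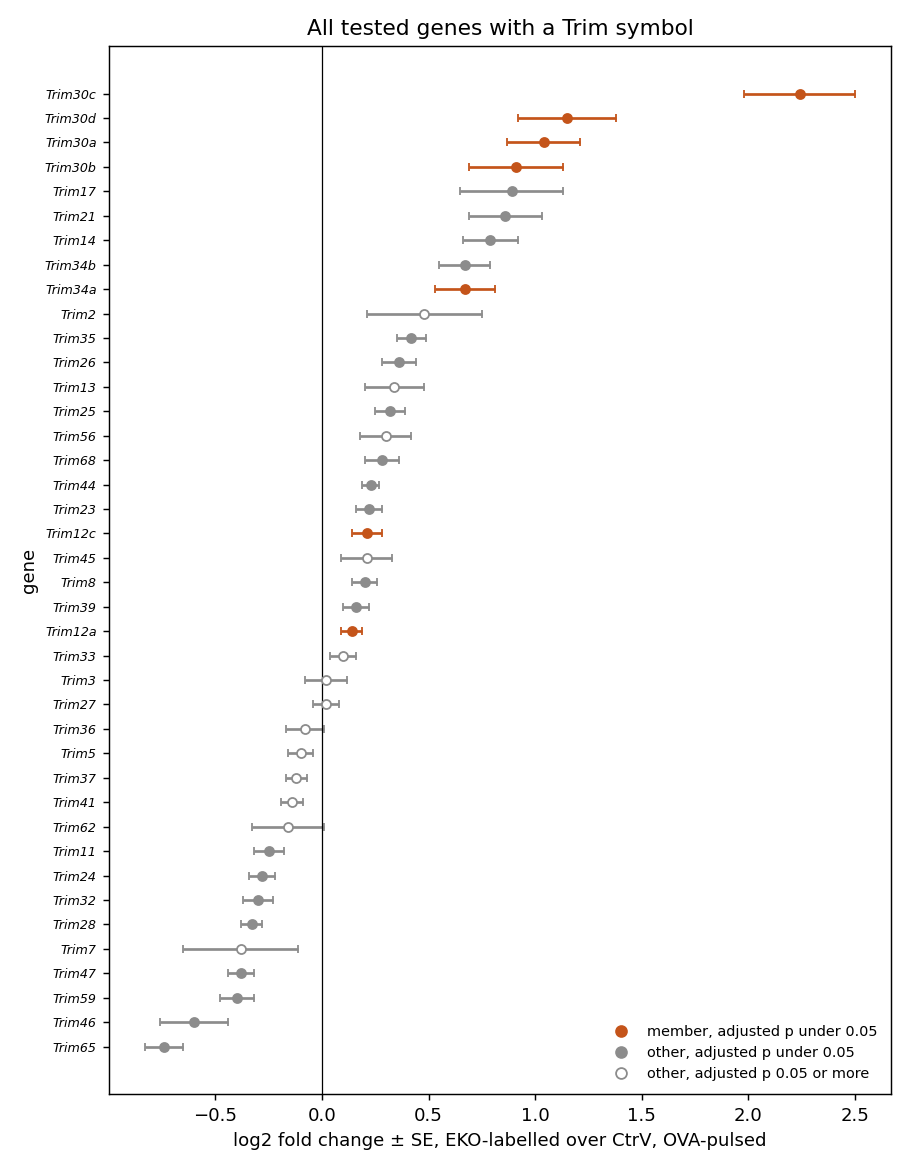
Log2 fold change ± SE of EKO-labelled over CtrV in OVA-pulsed cells for all 40 tested genes with a Trim symbol, members in orange, open symbols for an adjusted p of 0.05 or more. The Trim30 genes lie at the top, Trim34a among the next, and Trim12c and Trim12a in the middle of the range.

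The genes whose libraries most resembled each member were found by the root mean square (RMS) difference of centred log2 CPM over the 12 libraries. Nearest to Trim30a were Uba7, the activating enzyme for ISG15 (RMS 0.0604), and Sp100, a nuclear body protein (0.0617). Among the nearest to Trim30d were the predicted gene Gm28177 (RMS 0.0689) and Mov10, an RNA helicase (0.0771). Trim30b was nearest to Igtp, an interferon-inducible GTPase (RMS 0.0797), Parp10 (0.0835) and Tdrd7 (0.107). Trim34a was nearest to its copy Trim34b (RMS 0.0619), Usp25 (0.0637) and Zfand5 (0.0659). Trim30c was without close company, with Serpinb7 (RMS 0.307), Fcgr4 (0.323) and Cd69 (0.326) as its nearest. It had the lowest counts and the largest fold changes of the members, and what set it apart was not tested. Trim12a was nearest to Tox4 (RMS 0.0328), Snap23 (0.0395) and Vps26c (0.0414), and Trim12c to Zfp983 (0.0459), Zfp869 (0.0521) and Cryzl1 (0.0529), genes whose log2 fold changes after OVA were 0.15 to 0.29. These likenesses include the difference between the lines, which the 12 libraries share. The RMS difference is not scaled to how much a gene varies. Genes that vary little, such as Trim12a and Trim12c, therefore give small values, which do not rank likeness between members.

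Genes of type I interferon signalling, a list of 13 that were all tested, were mostly higher in EKO-labelled cells. After OVA 8 were higher, 1 lower and 4 not called, and without OVA 9, 1 and 3. The lower gene was Ifnar2, for a receptor subunit. Its log2 fold change was -0.31 after OVA (SE 0.06, edgeR adjusted p = 0.0014) and -0.32 without (SE 0.06, edgeR adjusted p = 0.0013). Ifnar1, Jak1, Irf3 and Irf1 were not called after OVA. Of all tested genes, 25.1% were called higher after OVA and 24.5% without. The median log2 fold changes of the list were 0.45 and 0.31 against 0 for all genes. Irf7, the interferon regulatory factor that amplifies the response, rose from 46.6 ± 17.7 CPM to 235 ± 33.0 CPM (SD, n = 3) after OVA (log2 fold change 2.28, SE 0.35, adjusted p = 0.00035). Usp18, which removes ISG15 and dampens the receptor, rose from 214 ± 36.1 CPM to 771 ± 71.2 CPM (1.83, SE 0.19, adjusted p = 2.2e-05). The interferon gene Ifnb1 was scarce, at 0.148 ± 0.0365 CPM in the CtrV group and 2.92 ± 0.664 CPM in the EKO-labelled group after OVA (log2 fold change 4.29, SE 0.55, adjusted p = 0.00010). It was named after its values had been seen. Whether interferon accounts for the levels of the TRIM genes was not tested.

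A list of 10 genes for TAK1 and ubiquitin partners of TRIM5 and TRIM30 was examined. It held TAK1, its adaptors, Ube2 genes of ubiquitin conjugation, Traf6 and Sqstm1. After OVA 4 were higher, 0 lower and 6 not called, with a median log2 fold change of 0.04. Without OVA 3 were higher, with a median of 0.13. These counts can be read beside the 25.1% and 24.5% of all tested genes called higher. The largest changes after OVA were those of Sqstm1, the autophagy receptor p62 (0.92, SE 0.12, adjusted p = 0.00012), Ube2w (0.75, SE 0.06, adjusted p = 3.9e-06) and Traf6 (0.32, SE 0.10, adjusted p = 0.026). The Traf6 groups overlapped, and the gene was not called without OVA (0.12, adjusted p = 0.36). Tab2 was at 251 ± 4.34 CPM in the CtrV group and 236 ± 16.8 CPM in the EKO-labelled group after OVA, and Tab3 at 25.5 ± 1.33 CPM and 26.1 ± 0.544 CPM. Of 7 NLRP3 inflammasome genes, 2 were higher, 2 lower and 3 not called in each condition. Il1b, the cytokine precursor the inflammasome processes, was higher (2.02, SE 0.19, adjusted p = 1.1e-05), as was Casp1, the protease (0.94, SE 0.09, adjusted p = 1e-05), while Gsdmd, the pore-forming protein, was lower (-1.38, SE 0.08, adjusted p = 3.3e-07).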

How the data were processed

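The authors deposited raw counts per gene for the 12 libraries. According to their methods, reads were aligned to mm10 with STAR 2.7.0c, keeping 1 location for equally good hits, and 5′ read ends were counted on exon unions of Ensembl 101 with Rsubread 2.4.3. Whether counting used strand is not given in the sources used here. CPM and RPKM were computed here, RPKM with GENCODE exon lengths, which may differ from those counted. Tests used edgeR 4.0.16 in R 4.3.3 (quasi-likelihood, TMM, group and replicate number as covariates, all 12 libraries, Benjamini-Hochberg over 14079 genes, adjusted p under 0.05, no fold limit), and were tested on simulated data. Pairing followed the labels' replicate numbers, as in the study's model: deviations of same-numbered libraries of the lines correlated at 0.448, 0.292 and 0.289 after OVA and at 0.060, -0.012 and 0.263 without. Between OVA-pulsed and unpulsed libraries of one line they were 0.706, 0.351 and 0.411 for EKO-labelled and 0.077, 0.179 and 0.373 for CtrV. Replicate libraries differed by 4.85 to 45.3 times the counting noise (chi-square per degree of freedom). Alternatives were DESeq2 1.42.0, limma 3.58.1 voom, other normalizations and filters, no block, the compared groups alone and each library left out. Sequence alignments used Biopython 1.88. The members and gene lists were chosen with earlier results of these data known. Named genes were the members, other genes of the locus and 3 on each flank, the 3 nearest genes of each member, and, per list, the 3 largest called changes; 1 gene that this rule names is not reported here.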

Additional observations from a re-analysis of the deposited data

How the results depend on the processing

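When a log2 fold change of at least 1 in size was also required, 3 members remained past the thresholds after OVA and 4 without, among 1268 and 1241 genes in place of 6619 and 6537. Under the other settings 5 to 7 members were called after OVA and 7 without. After OVA, the call of Trim12a was also lost with upper-quartile normalization (log2 fold change 0.10, edgeR adjusted p = 0.11), DESeq2 (0.13, DESeq2 adjusted p = 0.10) and no expression filter (0.12, edgeR adjusted p = 0.20), and that of Trim12c with no expression filter (0.19, edgeR adjusted p = 0.052). Its fits without 1 library gave 0.14 to 0.30. Without the replicate block 5 members were called after OVA (Trim12a 0.14 and Trim12c 0.21 were lost), 7 without OVA and 0 in the other comparisons. Signs turned only in values that were not called. For OVA-pulsed against unpulsed CtrV cells, Trim12c was -0.02 with upper-quartile normalization. With 1 library left out, those values ran from -0.08 to 0.06 for Trim12c, -0.21 to 0.26 for Trim30a, -0.22 to 0.37 for Trim30b, -0.32 to 0.35 for Trim30d and -0.21 to 0.19 for Trim34a. In EKO-labelled cells they ran from -0.22 to 0.07 for Trim30a, -0.31 to 0.13 for Trim30b, -0.30 to 0.12 for Trim30d and -0.20 to 0.02 for Trim34a. For the dependence on pulsing they ran from -0.31 to 0.16 for Trim30a, -0.45 to 0.18 for Trim30b, -0.40 to 0.28 for Trim30d and -0.25 to 0.15 for Trim34a. Depth limits mainly Trim30c, with 13 to 147 counts.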
